A study of Homo sapiens with 6 samples.

Results

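The aminoacyl-tRNA synthetases are the enzymes that load each tRNA with its amino acid before it can enter the ribosome. A total of 36 synthetase genes were looked up by symbol in a table of RNA levels, 20 for the cytosolic enzymes and 16 for the mitochondrial enzymes, whose symbols end in 2. They took up 48 of the 24108 rows, because VARS, VARS2 and WARS2 were each listed in several rows. The cells were MDA-MB-231, a triple-negative breast cancer line that the labels class as basal. In the control group (shCtr) they carried a lentiviral LKO hairpin against luciferase, and in the other group (shZNF148) a hairpin against the zinc finger factor ZNF148. All cells were transduced for 48 h and then kept for 24 h in 0.5 µg/ml puromycin. Each group had 3 samples, named in the labels as repeats. No source says that the repeats were separate cultures, so the p-values measure only the spread between these samples. A single ZNF148 hairpin in 1 cell line was sequenced, so effects of that hairpin other than on ZNF148 cannot be told apart from the loss of ZNF148. The question addressed here was whether the RNA levels of the synthetases differed between the groups, and whether cytosolic and mitochondrial enzymes differed in the same way.

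ZNF148 itself stood at 0.677 ± 0.344 FPKM in shZNF148 against 4.13 ± 0.354 in shCtr (SD, n = 3 each), 16.4% of the control level. FPKM is the number of fragments per kilobase of transcript and per fixed number of mapped fragments, so it can be compared between genes. The mesenchymal markers VIM, CD44, AXL, CAV1 and MSN lay between 174 and 1842 FPKM in every sample, and ESR1 and KRT5 were listed at 0. All 5 mesenchymal markers had lower means in shZNF148, and CD44 (log2 fold change -0.46, adjusted p = 0.0185 by limma) and AXL (-0.29, adjusted p = 0.0364 by limma) fell, while VIM at -0.22, MSN at -0.22 and CAV1 at -0.12 did not pass. Their part in the synthetase results was not tested. PGR and CDH1 stayed below 0.5 FPKM, whereas the epithelial markers GATA3 and EPCAM, listed as markers that should be near 0 in this line, were between 7.53 and 11.1 FPKM. The number of reads is unknown, but the steps between low values gave depths relative to shCtr replicate 1, from 0.806 in shZNF148 replicate 3 to 1.13 in shZNF148 replicate 1.

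Cells make a cytosolic set of synthetases for the proteins encoded in the nucleus and, from separate nuclear genes, a mitochondrial set for the proteins encoded in mitochondrial DNA. GARS and KARS are exceptions, since 1 gene gives both forms of the enzyme. In the cytosol, 8 of these enzymes sit together in the multi-synthetase complex, and the others are free-standing. When amino acids run short, uncharged tRNA activates the kinase GCN2, and the transcription factor ATF4 then turns on genes of amino acid supply, among them many cytosolic synthetases. Tumour cells depend on this route when protein synthesis outruns the supply of amino acids.

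Of the 36 genes, 34 passed the filter of a mean of at least 1 FPKM, 19 cytosolic and 15 mitochondrial. Those left out were the valyl enzymes. VARS, the cytosolic enzyme on chromosome 6, was listed at 0 in all 7 of its rows and in every sample. VARS2, its mitochondrial counterpart on the same chromosome, was listed at 0 in 4 of its 6 rows. Its highest row held 0.282, 0.0324 and 0.0671 FPKM in shCtr and 0.344, 0.379 and 0.175 FPKM in shZNF148. A value of 0 in a table of this kind can be a failed estimate, so the values do not show that VARS was silent.

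The cytosolic genes were the more abundant set. Their mean over the 6 samples ran from 25.8 FPKM for FARSB, the beta subunit of the phenylalanyl enzyme, to 167 FPKM for TARS, the threonyl enzyme, with a median of 57.5 FPKM. The mitochondrial genes ran from 3.81 FPKM for PARS2, the prolyl enzyme, to 58.9 FPKM for IARS2, the isoleucyl enzyme, with a median of 10.5 FPKM. IARS2 was the exception in its set, ranking 9 among the 34 genes, between RARS and FARSA, and the other 14 mitochondrial genes all ranked below the last cytosolic one. Next to IARS2 in the mitochondrial order came CARS2 at 19.0 FPKM and TARS2 at 17.9 FPKM. The 3 most abundant cytosolic genes after TARS, namely DARS at 101 FPKM, GARS at 98.2 FPKM and SARS at 98.1 FPKM, had overlapping sample values.

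**Figure D1:**
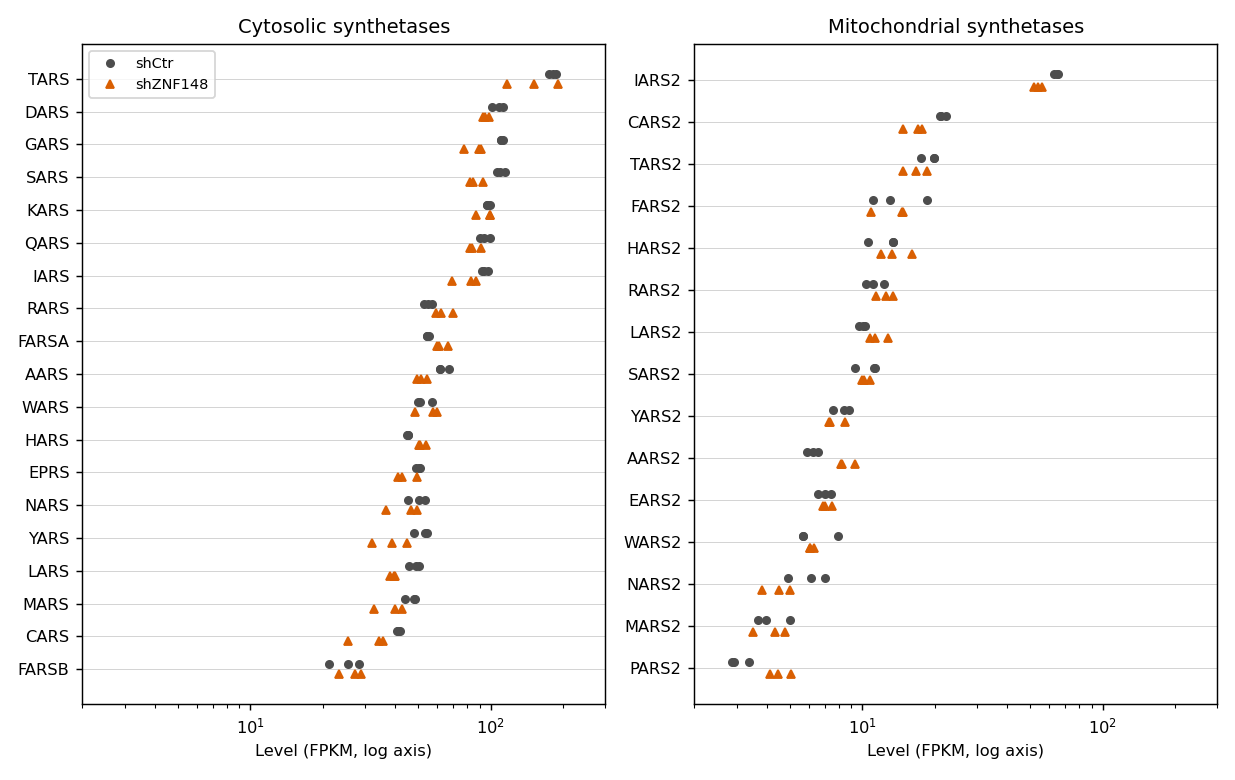
Level of each tested synthetase gene in FPKM on a log axis, with cytosolic genes on the left and mitochondrial genes on the right, ordered by their mean over the 6 samples. Grey circles are the 3 shCtr samples and orange triangles the 3 shZNF148 samples. Among genes with an adjusted p under 0.05 in limma, the shZNF148 samples lie left of all shCtr samples for GARS, SARS, AARS, LARS, CARS2 and IARS2. They lie right of them for AARS2 and PARS2. Among genes that did not pass, they also lie left for CARS, DARS, IARS, MARS and YARS and right for FARSA, HARS, RARS and LARS2.

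In shZNF148 cells, 4 cytosolic synthetase genes fell, namely GARS, SARS, AARS and LARS, each to 77.4% to 81.4% of its shCtr level, and 0 rose. In the mitochondrial set CARS2 and IARS2 fell and AARS2 and PARS2 rose. Here a gene is said to rise or fall when its adjusted p was under 0.05 in limma, fitted to log2(FPKM + 1) over all 11777 tested rows with Benjamini-Hochberg adjustment. Fold changes are shZNF148 minus shCtr on that scale. None of the 34 genes also passed a change of 1.5-fold, which 5.49% of all tested rows did, and at an unadjusted p under 0.05 12 of the 34 genes were lower, against 17.8% of all tested rows, and 5 higher, against 16.0%. Against all tested rows, of which 8.13% fell and 5.46% rose, 4 of 19 cytosolic genes fell, and 2 of 15 mitochondrial genes fell and 2 rose. Fewer cells of a kind and less RNA per cell cannot be told apart in such bulk samples.

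These counts depended on which samples were in the fit and on how samples were scaled. Leaving out shCtr replicate 1, 2 or 3 or shZNF148 replicate 1 left 0 of the 34 genes past the threshold in limma, at 29, 312, 47 and 403 passing rows of the whole table, and without shZNF148 replicate 2 or 3 there were 7 and 4. When each sample was scaled to the same summed FPKM, which moved the median of all rows to 0.07, 0 genes fell and 4 rose. Those were AARS2 and PARS2 again, with HARS and FARSA. Quantile normalization gave 2 genes that fell and 3 that rose. In none of these fits did any of the 8 genes change direction.

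The largest change among the cytosolic genes that passed was that of GARS (chr7:30580533-30634033 on GRCh38), the glycyl enzyme of cytosol and mitochondria. It read 112, 110 and 110 FPKM in shCtr and 88.9, 77.3 and 90.8 FPKM in shZNF148. The groups did not overlap, and shZNF148 replicate 2 was the lowest. The log2 fold change of GARS was -0.37 with a standard error of 0.07 and an adjusted p of 0.0293 by limma.

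SARS (chr1:109213918-109238182), the seryl enzyme, which also starts the making of selenocysteine on its tRNA, had 106, 114 and 109 FPKM in shCtr and 84.6, 81.9 and 92.6 FPKM in shZNF148. Every shZNF148 value was below every shCtr value, and the log2 fold change was -0.34 ± 0.07 (standard error) with an adjusted p of 0.0280 by limma. The alanyl enzyme AARS (chr16:70251983-70289707) measured 67.2, 61.4 and 61.7 FPKM in shCtr and 54.5, 49.2 and 51.1 FPKM in shZNF148. Again the groups were apart, with a log2 fold change of -0.29 ± 0.07 and an adjusted p of 0.0405 by limma. LARS (chr5:146110566-146182696) charges leucine, belongs to the multi-synthetase complex and also acts as a leucine sensor for mTORC1. Its samples gave 48.9, 50.4 and 45.7 FPKM in shCtr and 39.6, 38.3 and 40.1 FPKM in shZNF148. The shZNF148 samples of LARS lay close together below the controls, with a log2 fold change of -0.29 ± 0.06 and an adjusted p of 0.0331 by limma.

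A pair of cytosolic genes had a larger fold change than these but did not pass, because their shZNF148 samples were widely spread. YARS, the tyrosyl enzyme, had 54.4, 47.9 and 53.5 FPKM in shCtr and 39.0, 32.1 and 44.9 FPKM in shZNF148 (log2 fold change -0.43, 95% interval -0.73 to -0.13, adjusted p = 0.0656 by limma). CARS, the cysteinyl enzyme, had 40.9, 41.2 and 42.0 FPKM in shCtr against 35.6, 25.6 and 34.4 FPKM in shZNF148 (log2 fold change -0.38, 95% interval -0.68 to -0.08, adjusted p = 0.0864 by limma). In both genes the groups did not overlap and shZNF148 replicate 2 was the lowest sample. TARS, the most abundant member, varied widely, at 151, 117 and 191 FPKM in shZNF148 against 187, 175 and 181 FPKM in shCtr. Its groups overlapped, with shZNF148 replicate 3 above all controls and an interval of -0.66 to 0.13 around a log2 fold change of -0.27.

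At the other end of the cytosolic set stood RARS, HARS and FARSA, none of which passed. RARS, the arginyl enzyme of the complex, had 57.2, 52.8 and 54.6 FPKM in shCtr and 59.4, 61.8 and 69.5 FPKM in shZNF148 (log2 fold change 0.21, adjusted p = 0.116 by limma). HARS, the histidyl enzyme, had 45.0, 45.2 and 45.1 FPKM in shCtr and 53.8, 50.7 and 50.5 FPKM in shZNF148 (log2 fold change 0.19, adjusted p = 0.0657 by limma). FARSA, the alpha subunit of the phenylalanyl enzyme, had 54.3, 54.2 and 55.3 FPKM in shCtr and 60.0, 66.6 and 60.8 FPKM in shZNF148 (log2 fold change 0.19, adjusted p = 0.0885 by limma). All 3 genes had every shZNF148 sample above every shCtr sample. HARS and FARSA passed when samples were scaled to equal summed FPKM. HARS starts head to head with HARS2 and shares 108 bases with it on the opposite strand. FARSB, the partner of FARSA in the same enzyme, had a log2 fold change of 0.08 with an interval of -0.22 to 0.38 and overlapping groups.

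The remaining cytosolic genes were MARS at a log2 fold change of -0.28, IARS at -0.25, EPRS, NARS and DARS each at -0.17, QARS at -0.14, KARS at -0.03 and WARS at 0.07, none of which passed. KARS, the lysyl enzyme, had an interval of -0.20 to 0.14, and its sign turned under quantile normalization. WARS, the tryptophanyl enzyme known to be induced by interferon gamma, had an interval of -0.16 to 0.31. Over the cytosolic set as a whole, 14 of the 19 genes had a fold change below 0 and 5 above, with a median of -0.17 against 0.01 over all tested rows, and with equal summed FPKM or quantile normalization 13 were below 0. The 3 shZNF148 samples lay below all 3 shCtr samples in 9 of the 19 genes, against 21.0% of all tested rows, and above them in 3, against 20.0%.

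Summed over the 19 cytosolic genes, shCtr had 1391, 1360 and 1384 FPKM and shZNF148 had 1250, 1146 and 1289 FPKM. The groups did not overlap on this scale. As a share of the summed FPKM of each sample, however, the values were 0.274%, 0.272% and 0.278% in shCtr and 0.263%, 0.235% and 0.275% in shZNF148, so that shZNF148 replicate 3 lay within the shCtr range. Across the cytosolic genes, shZNF148 replicate 2 held the lowest of the 6 values in 11 of 19. Its median difference from the shCtr mean was -0.33, compared with -0.17 and -0.16 for shZNF148 replicates 1 and 3. Without shZNF148 replicate 2 the median of the cytosolic fold changes was -0.16 and CARS, GARS, LARS and SARS passed as lower, with AARS at an adjusted p of 0.0528 by limma.

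**Figure D2:**
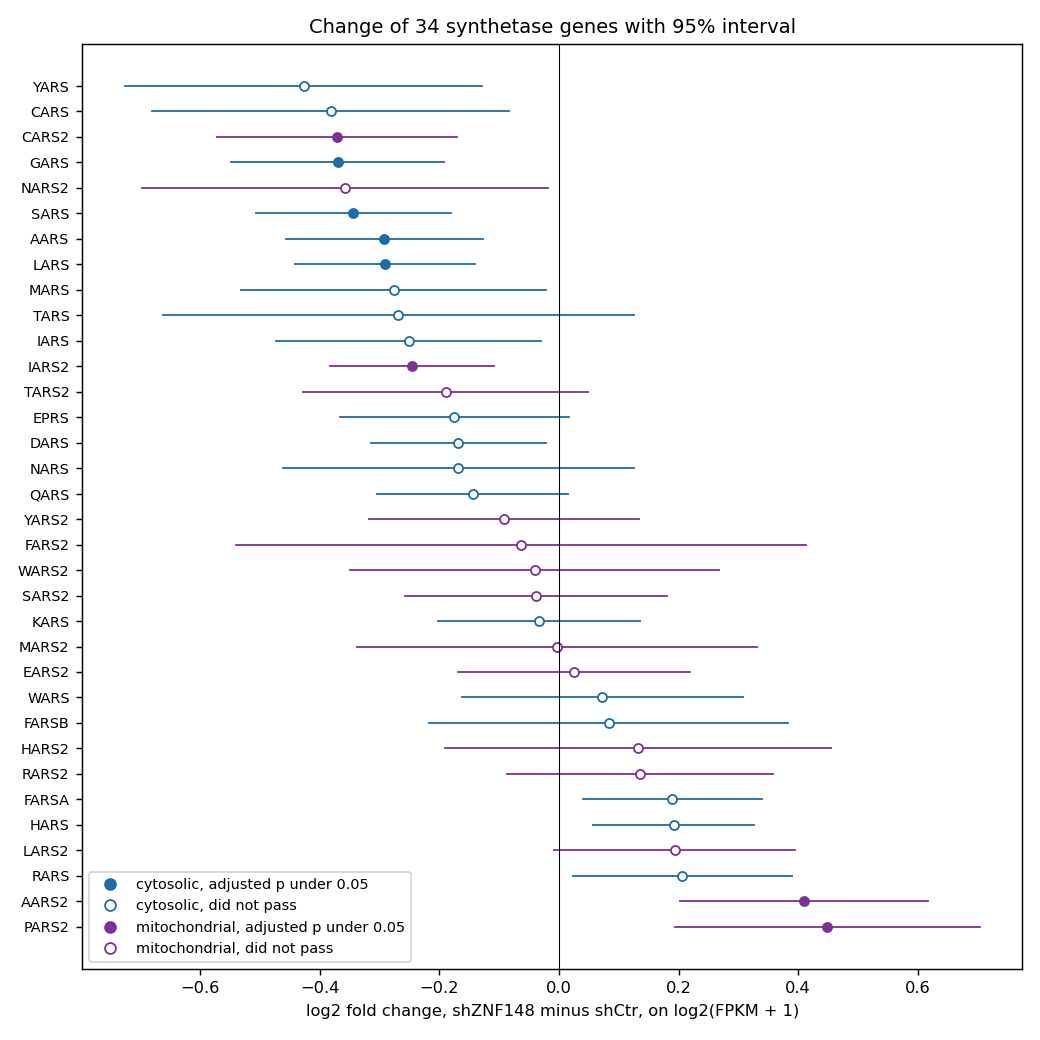
Log2 fold change of the 34 tested synthetase genes on the log2(FPKM + 1) scale, shZNF148 minus shCtr, with the 95% interval from limma as a line. Cytosolic genes are blue and mitochondrial genes purple, and filled circles mark an adjusted p under 0.05. The estimates run from -0.43 for YARS to 0.45 for PARS2.

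In the mitochondrial set the changes went in both directions. CARS2 (chr13:110641412-110713603), the cysteinyl enzyme, which is also known for making cysteine persulfides, read 21.1, 22.3 and 21.4 FPKM in shCtr and 17.0, 14.8 and 17.7 FPKM in shZNF148. IARS2 (chr1:220094132-220148041), the isoleucyl enzyme, read 62.8, 64.4 and 64.9 FPKM in shCtr and 51.8, 53.8 and 56.0 FPKM in shZNF148. Both fell with no overlap between groups. The log2 fold change was -0.37 ± 0.08 (standard error) for CARS2, with an adjusted p of 0.0372 by limma, and -0.25 ± 0.06 for IARS2, with an adjusted p of 0.0401 by limma.

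The genes that rose, AARS2 and PARS2, were among the less abundant mitochondrial ones. AARS2 (chr6:44298731-44313347), the alanyl enzyme, measured 6.22, 5.87 and 6.54 FPKM in shCtr and 8.17, 9.35 and 8.24 FPKM in shZNF148. PARS2 (chr1:54756898-54764523), the prolyl enzyme, measured 3.39, 2.88 and 2.93 FPKM in shCtr and 5.05, 4.46 and 4.15 FPKM in shZNF148. For both genes all shZNF148 samples were higher than all shCtr samples. AARS2 changed by 0.41 ± 0.09 on the log2 scale with an adjusted p of 0.0321 by limma, to 138% of its shCtr level. PARS2 changed by 0.45 ± 0.11 with an adjusted p of 0.0411 by limma, to 148% of its shCtr level, and the added 1 FPKM makes the fold change on this scale smaller than that ratio. On GRCh38, AARS2 shares 8776 bases with TMEM151B on the opposite strand and lies whole, over 14617 bases, within an unnamed readthrough gene on that strand, and whether fragments were assigned by strand is not stated.

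Among the mitochondrial genes that did not pass, NARS2, the asparaginyl enzyme, had 4.90, 6.11 and 6.97 FPKM in shCtr and 4.50, 3.82 and 5.002 FPKM in shZNF148. Its groups overlapped, and the log2 fold change of -0.36 had an interval of -0.70 to -0.02 and an adjusted p of 0.133 by limma. LARS2, the leucyl enzyme, stood at 10.3, 10.1 and 9.68 FPKM in shCtr and 11.3, 12.8 and 10.8 FPKM in shZNF148. All shZNF148 samples of LARS2 were above the controls, with a log2 fold change of 0.19, an interval of -0.01 to 0.39 and an adjusted p of 0.161 by limma. The other 9 genes were TARS2 (-0.19), YARS2 (-0.09), FARS2 (-0.06), WARS2 (-0.04), SARS2 (-0.04), MARS2 (-0.0033), EARS2 (0.03), HARS2 (0.13) and RARS2 (0.14), given as log2 fold changes.

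Over the whole mitochondrial set, 9 of 15 genes were below 0 and 6 above, with a median of -0.04, but 5 were below and 10 above, with a median of 0.026, when samples were scaled to equal summed FPKM. All shZNF148 samples lay below all shCtr samples in 2 of the 15 genes and above them in 3, against 21.0% and 20.0% of all tested rows. The summed level of the set was 199, 211 and 203 FPKM in shCtr and 190, 192 and 192 FPKM in shZNF148. These sums did not overlap, but 1 gene, IARS2, made up much of each. As a share of the summed FPKM of each sample the mitochondrial set held 0.0408% ± 0.0015 in shCtr and 0.0401% ± 0.0009 in shZNF148 (SD, n = 3 each), with overlapping samples. The median fold change was lower in the cytosolic set than in the mitochondrial set by 0.14 on the log2 scale. After quantile normalization it was lower by 0.11. The sets also differed in level, with medians of 57.5 FPKM (cytosolic) and 10.5 FPKM (mitochondrial). Rows of like level were not compared, so a part of level in this difference was not tested.

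For 12 amino acids the cytosolic and the mitochondrial enzyme were both measured under matching names, which allows a ratio within each sample. Scaling a sample by a single factor does not change that ratio, but quantile normalization can. Under it the log2 fold change of SARS moved from -0.34 to -0.27, and that of SARS2 stayed at -0.04. The ratios below are of the FPKM values as given and were not worked out after quantile normalization. The alanyl pair moved most. AARS was 10.8, 10.5 and 9.42 times as abundant as AARS2 in shCtr and 6.67, 5.26 and 6.21 times in shZNF148. The mean ratio was 10.2 ± 0.721 in shCtr and 6.05 ± 0.722 in shZNF148 (SD, n = 3 each). The leucyl pair followed, with LARS over LARS2 at 4.75, 5.001 and 4.72 in shCtr and 3.51, 2.98 and 3.72 in shZNF148. In both pairs the cytosolic gene had gone down while the mitochondrial value was higher, although LARS2 did not pass by itself.

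The ratio was also lower in every shZNF148 sample than in any shCtr sample for the tyrosyl, seryl and methionyl pairs. YARS over YARS2 had a mean of 6.31 ± 0.825 in shCtr and 4.999 ± 0.513 in shZNF148. SARS over SARS2 went from 10.4 ± 1.54 to 8.38 ± 0.217, and MARS over MARS2 from 11.2 ± 1.66 to 9.17 ± 0.183 (SD, n = 3 each). On GRCh38, SARS2 shares 15360 bases with an unnamed gene on the same strand. On the opposite strand, YARS2 shares 18161 bases with DNM1L and MARS 13370 bases with ARHGAP9. How fragments in such stretches were assigned is not stated. In the 7 other pairs the groups overlapped, and in 0 pairs was the ratio higher without overlap. How often ratios of other gene pairs lie apart was not worked out. Of single tested rows, 21.0% were lower and 20.0% higher without overlap. The cysteinyl pair stayed at 1.92 in both groups, as CARS and CARS2 were lower by similar amounts, and the isoleucyl pair had ratios of 1.47 and 1.48. With 3 samples against 3, the exact two-sided permutation test cannot give a p below 0.1, and each of the 5 pairs that did not overlap had that p.

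**Figure D3:**
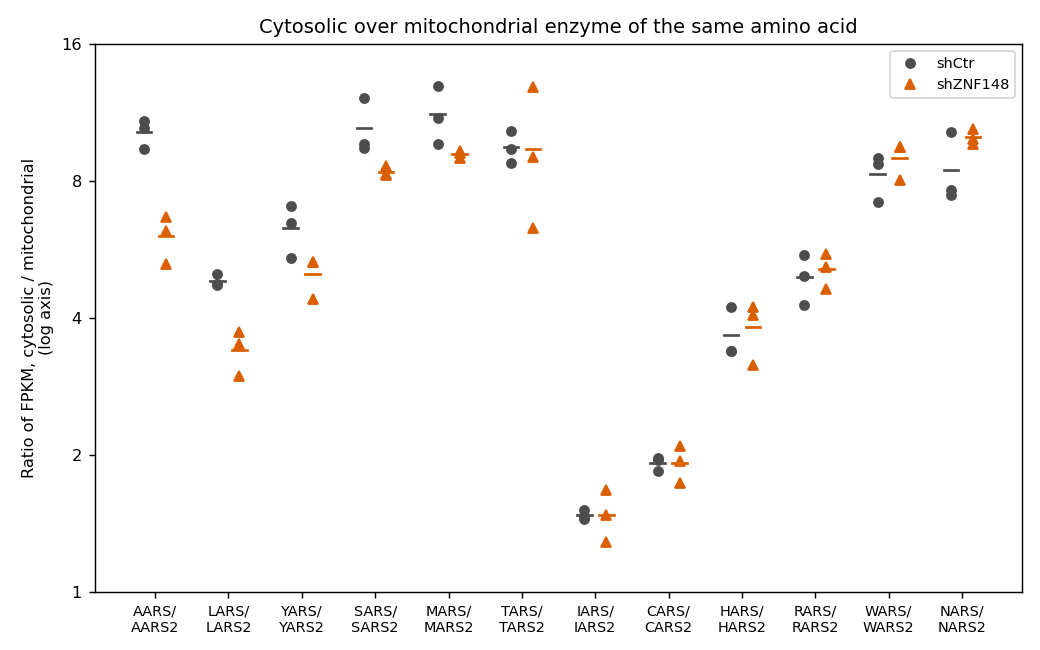
Ratio of the cytosolic to the mitochondrial synthetase of the same amino acid in each sample, as FPKM over FPKM on a log axis, for 12 pairs ordered by the change of the ratio. Grey circles are shCtr samples, orange triangles shZNF148 samples and short lines the group means. The alanyl ratio falls from 10.2 to 6.05, and the 5 pairs without overlap are those of alanine, leucine, tyrosine, serine and methionine.

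Members of the multi-synthetase complex and free-standing enzymes were also counted by direction, beside 5785 of all 11777 tested rows below 0. Of the 8 synthetases in the complex, 7 had a fold change below 0, with a median of -0.17, and LARS was the 1 that fell, against 8.13% of all tested rows. RARS was the exception at 0.21, and KARS lay close to 0 at -0.03. Of the 11 tested free-standing enzymes, 7 were below 0 and 3 fell, with a median of -0.27. The scaffold proteins that hold the complex together, AIMP1 and AIMP2, had log2 fold changes of 0.02 and -0.04, neither of which passed. The third, EEF1E1 (also called AIMP3), was listed only in a row merged with MUTED and TXNDC5, so it has no value of its own. By catalytic fold, 3 of the 16 tested class I enzymes fell and 0 rose, while 3 of the 17 class II enzymes fell and 2 rose, with medians of -0.12 and -0.06, against 8.13% of all tested rows that fell and 5.46% that rose. EPRS, which joins a class I and a class II enzyme in 1 protein, was in neither list.

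The cytosolic genes were also split into those listed from textbook knowledge as ATF4 targets and the others. The lists were chosen with earlier results of these data known, so the split is not independent of them. Of the 12 tested genes on the ATF4 list, 11 had a fold change below 0, WARS being the exception. Among all 11777 tested rows 5785 were below 0. GARS, SARS, AARS and LARS, 4 of the 12, fell, against 8.13% of all tested rows. The median of the 12 genes was -0.28, and the shZNF148 samples lay below all shCtr samples in 8 of them, against 21.0% of all tested rows. Of the 7 cytosolic genes not on the list (DARS, FARSA, FARSB, HARS, KARS, QARS and RARS), 3 were below 0 and 0 passed, with a median of 0.08. With samples scaled to equal summed FPKM, 11 of the 12 were still below 0 with a median of -0.21, though 0 passed. No test of the difference between the lists was made, since genes are not replicates.

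**Figure D4:**
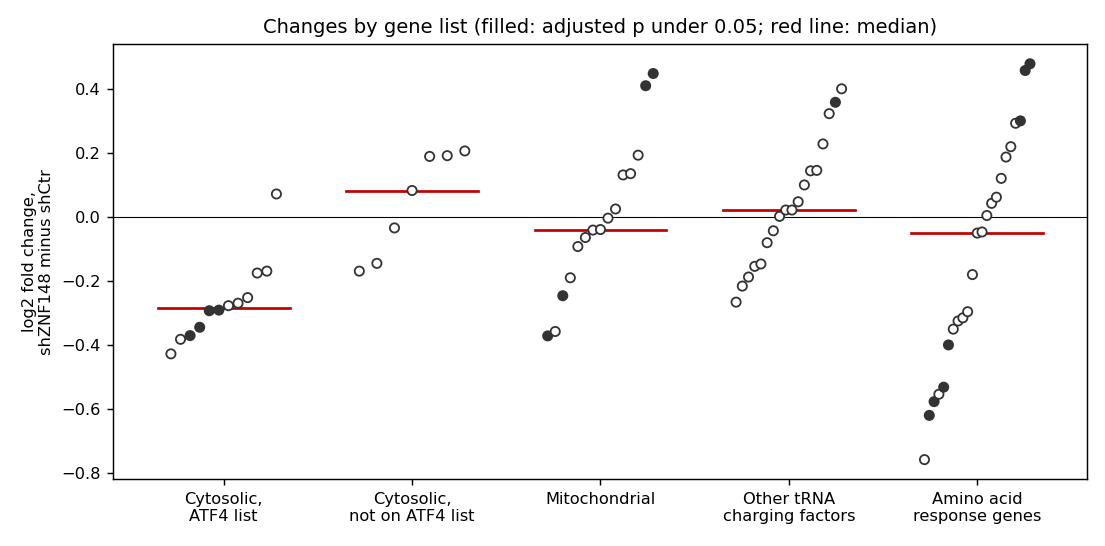
Log2 fold change, shZNF148 minus shCtr on log2(FPKM + 1), of each tested gene in 5 lists. Filled circles mark an adjusted p under 0.05 in limma and red lines the median of a list. The cytosolic genes on the ATF4 list have a median of -0.28 with 11 of 12 below 0, and the other 4 lists have medians between -0.05 and 0.08. The counts of the last 2 lists include the merged rows that hold EEF1E1 and TRIB3.

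Promoter sequences, from 250 bases before to 50 after each start site, were taken from RefSeq on GRCh38.p14 for 30 of the 36 genes, which had 39 promoters. They were searched on both strands for TGATGNAA, the core of the composite element that ATF4 binds together with a C/EBP factor. It was found in 7 of the 21 promoters of 16 cytosolic genes, each of a different gene. Of the 18 promoters of 14 mitochondrial genes 1 held it (YARS2), and of all 35116 RefSeq promoters 3.62%. The 7 cytosolic matches are shown as examples of the element, and a link between the element and the fold changes was not tested. Capitals mark the element, read on the strand of the gene, so that most show its reverse complement.
AARS: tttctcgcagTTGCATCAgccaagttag
CARS: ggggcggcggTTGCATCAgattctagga
GARS: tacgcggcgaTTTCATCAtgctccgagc
IARS: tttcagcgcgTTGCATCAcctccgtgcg
MARS: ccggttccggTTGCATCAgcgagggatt
NARS: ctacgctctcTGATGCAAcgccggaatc
TARS: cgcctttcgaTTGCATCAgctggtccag

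These windows lie at chr16:70289676-70289703 (AARS, minus strand), chr11:3057408-3057435 (CARS, minus), chr7:30594835-30594862 (GARS, plus), chr9:92293693-92293720 (IARS, minus), chr12:57488054-57488081 (MARS, plus), chr18:57621805-57621832 (NARS, minus) and chr5:33440957-33440984 (TARS, plus). Relative to the RefSeq start site of each promoter, the element began 187 bases upstream in AARS and within 33 bases of the start in the other 6. GENCODE 44 places the outermost start of all 7 genes further upstream, so that each window lies inside the gene as annotated there. All 7 genes had a fold change below 0, from -0.38 for CARS to -0.17 for NARS with a median of -0.28. AARS and GARS fell, and CARS, IARS, MARS, NARS and TARS did not pass. Without shZNF148 replicate 2 all 7 stayed below 0, from -0.30 for GARS to -0.04 for NARS. All 7 genes are also on the ATF4 list above, so this count is not independent of that list. The 9 cytosolic genes whose promoters lacked these letters had a median of 0.07, with 4 below 0, and SARS fell among them. No promoter was given for LARS, YARS, DARS, VARS, AARS2 and VARS2. A match is only a run of letters and does not show that ATF4 was bound.

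In SARS, whose promoters lacked the ATF4 element, the 200 bases before a RefSeq start site (chr1:109213693-109213892, plus strand) hold CCCCTCCCC, a C-rich word of the GC-rich kind that ZNF148 is known to bind. That word was in 2 of 21 cytosolic promoters, both of SARS and at the same site, in 0 of 18 mitochondrial promoters and in 7.81% of all promoters. PARS2, the member that rose most, is shown beside it (chr1:54764524-54764723, minus strand). The PARS2 promoter held neither the ATF4 element, that exact word nor the E-box CACGTG. Only exact letters were searched, and the PARS2 stretch holds other GC-rich runs. No contrast in ZNF148 binding can be drawn from these stretches. The E-box, the site of MYC and related factors, was in 1 of 21 cytosolic promoters (IARS) and in 4 of 18 mitochondrial promoters (CARS2, EARS2 and MARS2). Among all promoters 7.26% held it. Capitals mark the C-rich word in SARS.
SARS: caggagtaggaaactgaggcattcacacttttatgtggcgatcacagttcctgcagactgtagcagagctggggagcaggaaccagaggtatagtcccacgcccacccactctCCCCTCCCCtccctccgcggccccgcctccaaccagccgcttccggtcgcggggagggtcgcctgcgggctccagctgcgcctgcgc
PARS2: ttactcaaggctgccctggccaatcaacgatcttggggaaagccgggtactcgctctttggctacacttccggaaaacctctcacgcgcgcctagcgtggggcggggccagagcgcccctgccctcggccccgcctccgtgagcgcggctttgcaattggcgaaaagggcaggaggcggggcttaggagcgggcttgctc

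Outside the synthetases, 25 genes of the amino acid response were listed, of which 23 were tested. There, 4 fell and 3 rose, against 8.13% and 5.46% of all tested rows, with a median of -0.05 (0.02 with samples scaled to equal summed FPKM). Without shCtr replicate 1 or 3, 0 of the 23 passed in limma. Without shCtr replicate 2 there were 2 lower and 0 higher, without shZNF148 replicate 1 there were 1 lower and 0 higher, and without shZNF148 replicate 2 there were 6 lower and 3 higher. With no filter on low values ATF3, VLDLR and SLC38A2 did not pass. With the replicate number as a block there were 2 lower and 0 higher, and with eBayes without trend 4 lower and 1 higher. ASNS, which makes asparagine and is a standard ATF4 target, had 21.1, 17.9 and 19.9 FPKM in shCtr and 13.2, 12.6 and 13.9 FPKM in shZNF148, with a log2 fold change of -0.53 and an adjusted p of 0.0178 by limma. PYCR1, the last step of mitochondrial proline synthesis, had 79.6, 79.5 and 78.5 FPKM in shCtr and 60.9, 58.4 and 60.2 FPKM in shZNF148, a change of -0.40 with an adjusted p of 0.0120 by limma. The stress-induced factor ATF3 (log2 fold change -0.62, adjusted p = 0.0441 by limma) and the lipoprotein receptor VLDLR (-0.58, adjusted p = 0.0343 by limma) fell too. In ASNS and PYCR1 the groups were well apart.

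The 3 genes that rose all encode amino acid transporters. SLC7A5, the light chain of the large neutral amino acid exchanger, measured 111, 113 and 119 FPKM in shCtr and 157, 173 and 148 FPKM in shZNF148 (log2 fold change 0.48, adjusted p = 0.0177 by limma). Its heavy chain SLC3A2 had a mean of 100.2 FPKM in shCtr and 124 FPKM in shZNF148 (0.30, adjusted p = 0.0370 by limma), and the glutamine carrier SLC38A2 one of 30.2 FPKM and 42.1 FPKM (0.46, adjusted p = 0.0439 by limma). These transporters are known ATF4 targets as well, so the list did not move in 1 direction. ATF4 itself, at 85.2, 104 and 82.1 FPKM in shCtr and 76.1, 65.1 and 74.2 FPKM in shZNF148, had no overlap between groups but did not pass (log2 fold change -0.32, adjusted p = 0.0916 by limma). Its activity is set largely by translation, which RNA levels do not measure. TRIB3 was listed only in a row merged with RBCK1. DDIT3 at -0.30 did not pass, and it shares 982 bases with MARS on the opposite strand.

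Among 18 other factors of tRNA charging, 1 rose and 0 fell in limma, with a median of 0.02. These shares are near or below the 5.46% and 8.13% of all tested rows, as are the 2 higher and 2 lower at an unadjusted p under 0.05 beside 16.0% and 17.8%. The gene that rose was GATC, a subunit of the mitochondrial amidotransferase that turns glutamyl-tRNA into glutaminyl-tRNA in place of a mitochondrial glutaminyl synthetase. GATC read 13.2, 14.2 and 14.1 FPKM in shCtr and 18.0, 18.5 and 17.5 FPKM in shZNF148, with a log2 fold change of 0.36 ± 0.07 and an adjusted p of 0.0239 by limma. All shZNF148 samples were above the controls. GATC did not pass without shCtr replicate 1, 2 or 3 (adjusted p = 0.101, 0.0635 and 0.0891 by limma) or without shZNF148 replicate 1 (adjusted p = 0.0653 by limma). The other subunits did not pass, with QRSL1 at a log2 fold change of 0.32 (interval -0.05 to 0.69) and GATB at 0.02 (-0.16 to 0.20). EARS2, the glutamyl enzyme that supplies this route, had 7.40, 6.57 and 6.98 FPKM in shCtr and 7.50, 6.84 and 7.02 FPKM in shZNF148, and its log2 fold change of 0.03 had an interval of -0.17 to 0.22.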

How the data were processed

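The deposited FPKM values came in a single table, as the authors made it, with 6 columns that matched the 6 samples and 0 others. The submitters' processing notes name bcl2fastq 2.17.1.14, TopHat2 2.0.14, Cufflinks 2.2.1 and Cuffnorm 2.2.1 with the builds hg18 and hg19, whereas the paper's methods name Salmon, GRCh38 and DESeq2. How samples were scaled, and with which annotation, is not given in the sources used here. Read counts were not recovered, so no count test was run.

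Groups came from the sample labels. The 11777 of 24108 rows whose mean reached 1 FPKM were fitted as log2(FPKM + 1) with limma 3.58.1 in R 4.3.3, condition as the only term, eBayes with trend and Benjamini-Hochberg adjustment. Of several rows for a gene, that of the highest mean stood for it. Sample values were given for members that passed and for the 3 largest changes in each direction in each set. Those of TARS, EARS2 and the untested valyl enzymes were given outside that rule. Of other lists, genes that passed and up to 3 others each were to be named, and QRSL1 and GATB were added after their values were seen. The members and lists were chosen with earlier results of these data known. Deviations of same-numbered samples showed no clear pairing, though 3 samples per group cannot decide this. Gene coordinates came from GENCODE 44 (GRCh38) and promoters from RefSeq (GRCh38.p14), since the table has none. In 11777 simulated rows, 100 were changed by 1.0 on the log2 scale and 100 by 0.3. Of these, 85% and 9% were called, with 6 false calls. Of the real rows 13.6% passed, a larger share than was changed here, so these percentages do not carry over to the real fit. Python 3.11.15, numpy 2.4.6, pandas 2.3.3 and matplotlib 3.10.9 were used otherwise.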

Additional observations from a re-analysis of the deposited data

How the results depend on the processing

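Of 17 alternative fits, 11 changed a setting and 6 left out a sample. None reversed any of the 8 members that passed, but each of those passed in only 7 to 10 of its alternatives. Scaling to equal summed FPKM was chosen after seeing the data. It gave 0 lower and 2 higher cytosolic members, 0 lower mitochondrial members, and medians of -0.11 (cytosolic) and 0.026 (mitochondrial). Quantile normalization gave 1 lower and 1 higher cytosolic member and 1 lower mitochondrial member. Without a filter on low values 1 mitochondrial member was lower and 0 higher, a filter at 5 FPKM left 1 higher, and eBayes without trend left 1 lower. The cause of these shifts was not tested. Members close to 0 turned positive: KARS at 0.031 (quantile) and 0.036 (equal sum), MARS2 at 0.0076 (quantile) and 0.054 (equal sum), FARS2 at 0.0022, SARS2 at 0.026 and WARS2 at 0.020 (equal sum), and WARS2 at 0.0039 with its rows added.

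With the replicate number as a block, 0 cytosolic and 0 mitochondrial members passed in either direction, among 401 passing rows (3.4%). Deviations of same-numbered samples correlated at 0.001, -0.088 and 0.030. With 3 samples per group this cannot decide whether same-numbered samples were handled together. Leaving out 1 sample gave 0 to 4 lower cytosolic, 0 to 2 lower mitochondrial and 0 to 1 higher mitochondrial members. Medians ranged from -0.25 to -0.16 (cytosolic) and -0.077 to 0.021 (mitochondrial), and their difference from -0.22 to -0.093. The log2 fold changes whose sign turned ranged from -0.028 to 0.17 for FARSB, -0.012 to 0.063 for EARS2, -0.22 to 0.13 for FARS2, -0.082 to 0.0997 for MARS2, -0.12 to 0.0039 for SARS2, -0.11 to 0.098 for WARS2 and -0.068 to 0.030 for KARS. Read depth behind each FPKM value is unknown, which limits what can be said of the mitochondrial genes of a few FPKM.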
